A study of Mus musculus with 7 samples.

Results

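The V joins described here lie 1.5 to 2.1 Mb upstream of VH81X on mouse chromosome 12, in the distal part of the Igh variable region, where the Ighv1 family prevails. Members were chosen by position alone. Prey positions in deletional orientation were pooled over all 7 libraries, joined where gaps were at most 300 bp, and kept where at least 10 lines fell together. This gave 34 of the 158 V segments of the series, from position 116337079 to 116922503 of the files' reference, which the submitters' processing notes call mm9. The segments lay 1501 to 2086 kb from VH81X. They held 8947 of the 8988 V lines in this stretch, and the other 41 lines lay outside any segment. A line is 1 sequenced read in the deposited junction lists.

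The assay, HTGTS (high-throughput, genome-wide translocation sequencing), amplifies and sequences whatever DNA has become joined to a chosen break, which was the coding end of JH4. Genomic DNA came from bone marrow pro-B cells of mice aged 4 to 6 weeks, sorted as B220+CD43highIgM-, and all mice carried the 129SVE background. The groups were WT (n = 3 libraries) and VH81X-CBEscr/scr (n = 4 libraries), and the question of the series is the relative use of VH segments in the 2 genotypes. The labels do not say what the scr/scr allele holds or whether libraries came from separate mice, and p-values therefore cover the spread between these libraries alone, which may be technical. The files hold DNA joins and no expression, so the sorted cell type was not checked against marker genes.

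A heavy chain gene is assembled by the RAG recombinase, which first joins a D to a JH segment and then a VH segment to the DJ join. Each VH segment ends in a conserved cysteine codon a few bases before the recombination signal, and the join that follows becomes the most variable loop of the antigen-binding site. A join codes for a heavy chain only where the cysteine codon and the tryptophan codon of JH stay in one reading frame with no stop codon between them. VH81X lies near the D segments, whereas distal VH segments come close to the DJ join through contraction and looping of the locus. CTCF, which binds the elements that CBE stands for in the series title, is known for shaping those loops.

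By spacing, 33 of the 34 segments were matched to genes of the RefSeq table of assembly GRCm38.p6, 29 of them Ighv1 and 4 Ighv8. The constant offset used was the most frequent difference between segments and table genes, shared exactly by 21 of the segments. A segment was then named where it lay within 60 bp of a table gene. The 33 named segments were at most 42 bp off, while the closest second gene was 2900 bp away. The names mark positions of the reference and not 129SVE alleles. The table lists 22 of the matched genes as V segments and 11 as pseudogenes. Another 13 table genes in the same stretch had no segment here, 10 of them pseudogenes and the others Ighv1-24, Ighv1-49 and Ighv8-6. The segment without a table gene, at position 116448076, held 10 lines, just at the minimum.

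The V ends read at the 10 most used positions show how alike these targets were. Each line gives the most frequent 60 bases of the V end, 5′ to 3′ on the coding strand (the minus strand), at the most frequent junction position of the segment. Capitals mark the codon of the conserved cysteine. For Ighv1-26 the 3 most frequent sequences are given, since no single one held most of the reads. Ighv1-55 was split as well, and over the 7 libraries pooled its printed end held 28.97% of 390 lines, ahead of others at 18.2% and 17.2%. That lead came from WT, where the printed end held 24.64%, 43.24% and 46.94%, ahead of both others in each library. In VH81X-CBEscr/scr it held 13.33%, 17.39%, 19.64% and 20.37%, and another of these sequences held more in each library. The difference between the genotypes at this end was noticed in the data and was not tested.

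Ighv1-54 at chr12:116822108-116822167: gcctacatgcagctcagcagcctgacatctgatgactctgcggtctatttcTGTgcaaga
Ighv1-26, most frequent at chr12:116416805-116416864: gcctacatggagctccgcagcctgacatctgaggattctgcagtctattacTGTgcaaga
Ighv1-26, the second at chr12:116416805-116416864: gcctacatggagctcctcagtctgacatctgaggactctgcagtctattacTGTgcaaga
Ighv1-26, the third at chr12:116416805-116416864: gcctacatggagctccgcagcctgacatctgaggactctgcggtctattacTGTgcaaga
Ighv1-47 at chr12:116619541-116619600: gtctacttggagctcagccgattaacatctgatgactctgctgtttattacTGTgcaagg
Ighv1-42 at chr12:116565546-116565605: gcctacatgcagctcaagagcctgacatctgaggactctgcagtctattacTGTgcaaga
Ighv1-20 at chr12:116352205-116352264: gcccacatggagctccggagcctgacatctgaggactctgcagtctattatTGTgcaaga
Ighv1-55 at chr12:116836528-116836587: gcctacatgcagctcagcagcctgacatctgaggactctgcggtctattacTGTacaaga
Ighv1-33 at chr12:116472084-116472143: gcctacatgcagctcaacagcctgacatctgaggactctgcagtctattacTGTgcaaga
Ighv1-39 at chr12:116543032-116543091: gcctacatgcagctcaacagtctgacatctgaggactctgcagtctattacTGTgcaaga
Ighv1-34 at chr12:116479623-116479682: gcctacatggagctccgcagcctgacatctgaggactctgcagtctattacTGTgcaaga
Ighv1-19 at chr12:116337081-116337140: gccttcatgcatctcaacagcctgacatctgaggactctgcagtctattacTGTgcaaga

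Most of these ends close with the same 9 bases, the cysteine codon followed by 6 more, and 25 of the 34 segments had exactly 6 bases after that codon at their most frequent position. The ends of 4 further segments are shown because their coding sequence departs from this pattern or because they stand for the other family. In Ighv1-27 and Ighv1-32 a stop codon in the frame of the cysteine is also in capitals. In Ighv1-21-1 the capitals mark the codon at the place of the cysteine, which reads TCT. Ighv8-4 stands for the Ighv8 positions.

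Ighv1-27 at chr12:116433049-116433108: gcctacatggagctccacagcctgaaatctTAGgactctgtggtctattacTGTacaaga
Ighv1-32 at chr12:116463656-116463715: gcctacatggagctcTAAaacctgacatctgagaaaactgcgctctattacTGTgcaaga
Ighv1-21-1 at chr12:116364678-116364737: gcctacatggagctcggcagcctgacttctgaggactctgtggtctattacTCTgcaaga
Ighv8-4 at chr12:116652452-116652511: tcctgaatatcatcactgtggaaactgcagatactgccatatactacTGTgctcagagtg

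The libraries held 31986 to 46915 lines in all and 10961 to 16874 V lines, and at that depth a segment with no line could still have made up 0.0178% to 0.0274% of V joins (3 counts). Reads carried no molecular identifiers and can repeat 1 molecule, and the intervals and floors given here take in counting error alone. Lines marked as duplicates were kept in the files, and the 8988 lines in the stretch stood for 5746 distinct junctions. Of 5745 distinct patterns there, 1 was read in more than 1 library. Sequencing run and genotype cannot be told apart, since each of the 4 runs held 1 genotype. Joins in the inverted orientation were rare in the same stretch, with 0, 7 and 5 lines in WT, against 3, 5, 6 and 3 in VH81X-CBEscr/scr.

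Use of the 34 segments was uneven. Ighv1-54, 1986 kb from VH81X, took 13.2% of the lines in the stretch, the 5 most used segments took 44.5% and the 10 most used took 71.4%. At the other end, 10 segments took under 1% each. Over the 7 libraries the median segment had a mean share of 0.127% of V joins, against 0.383% for the 124 V segments elsewhere, and none of the 34 was among the 20 most used V segments. Ighv1-54 itself ranked 27th of 158. Of the 34 segments, 30 were joined in all 7 libraries. Ighv1-30, Ighv1-38 and Ighv8-5 were joined in 6 libraries, and the segment without a table gene in 4.

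**Figure D1:**
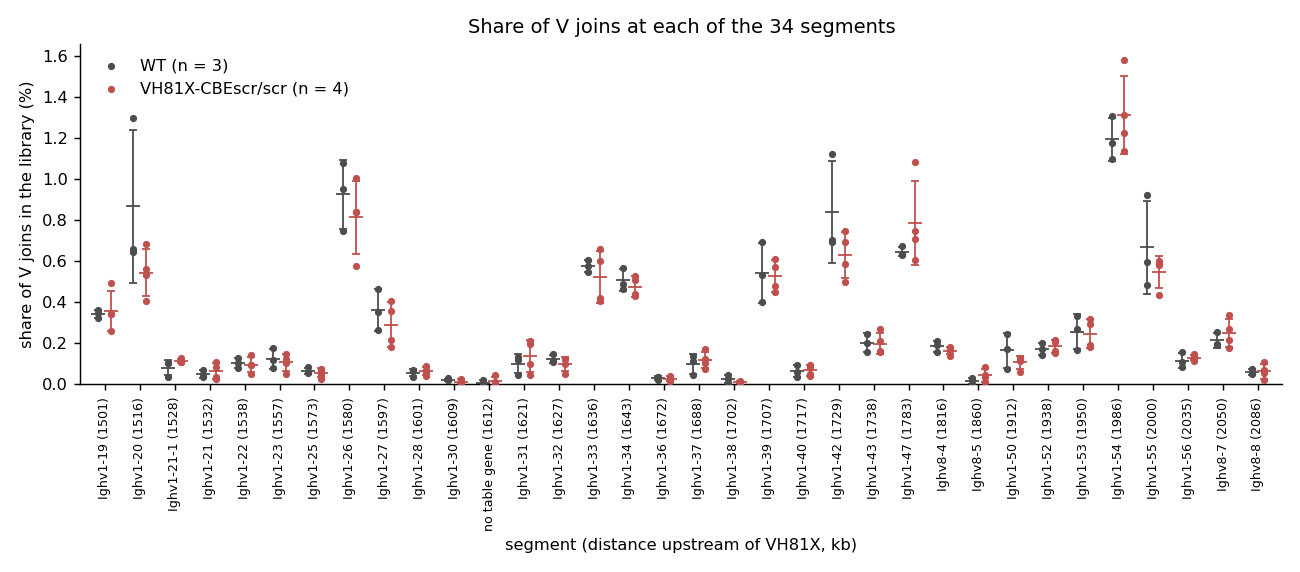
Share of V joins (percent of V lines in the library) at each of the 34 segments, ordered by distance upstream of VH81X in kb. Points are libraries, bars are mean ± SD of WT (n = 3, grey) and VH81X-CBEscr/scr (n = 4, red); Ighv1-54 is highest, and WT replicate 2 stands above the other libraries at Ighv1-20 and Ighv1-42.

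Ighv1-54 joins made up 1.096%, 1.305% and 1.175% of V joins in WT replicates 1 to 3 and 1.137%, 1.577%, 1.311% and 1.221% in VH81X-CBEscr/scr replicates 1 to 4. The groups overlapped, and by lines this was the most used segment of the stretch in each library. It also had the most lines per distinct junction, 2.05, and by distinct junctions it stood at 580 in all, near the 573 of Ighv1-26, which led it in WT replicate 2 (65 against 38) and VH81X-CBEscr/scr replicate 1 (76 against 66). Ighv1-26, 1580 kb away, held 0.948%, 1.077% and 0.745% in WT, against 1.004%, 0.574%, 0.836% and 0.840% in VH81X-CBEscr/scr. Replicate 2 of VH81X-CBEscr/scr was lowest and WT replicate 2 highest. Ighv1-47, whose nearest other consensus lay 14 differences in 100 bases away, held 0.634%, 0.630% and 0.672% in WT, against 0.747%, 1.080%, 0.606% and 0.706% in VH81X-CBEscr/scr. Here VH81X-CBEscr/scr replicate 2 stood above all others.

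Ighv1-42 held 0.699%, 1.122% and 0.692% in WT, against 0.747%, 0.583%, 0.499% and 0.693% in VH81X-CBEscr/scr. Ighv1-20 held 0.658%, 1.296% and 0.645% in WT, against 0.681%, 0.403%, 0.529% and 0.560% in VH81X-CBEscr/scr. At both positions WT replicate 2 was the highest library, above a range of 0.403% to 0.681% at Ighv1-20 and 0.499% to 0.747% at Ighv1-42 in the others. That library had the most repeated reads of the series, with 84.8% of all its lines marked as duplicates, and its 142 lines at Ighv1-20 stood for 38 distinct junctions against 81 for 111 lines in WT replicate 1. The genotype difference at Ighv1-20 is therefore given below also for distinct junctions and without that library.

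Ighv1-55, 2000 kb away, held 0.593%, 0.484% and 0.920% in WT, against 0.432%, 0.583%, 0.598% and 0.579% in VH81X-CBEscr/scr. Ighv1-33, a pseudogene in the table, held 0.605%, 0.575% and 0.544% in WT, against 0.656%, 0.420%, 0.406% and 0.598% in VH81X-CBEscr/scr. The other 3 of the 10 most used segments, Ighv1-39, Ighv1-34 and Ighv1-19, had mean shares of 0.533%, 0.488% and 0.352% over the 7 libraries. In all of them the groups overlapped. The table's V segments together held 82.8% of the lines in the stretch and its pseudogenes 16.7%.

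With VH81X counted, the share of the whole stretch did not differ between the genotypes beyond the spread of the libraries. It held 9.535%, 10.52% and 9.375% in WT, against 9.529%, 9.015%, 8.957% and 9.300% in VH81X-CBEscr/scr. The means were 9.81% ± 0.620 (SD, n = 3) and 9.20% ± 0.266 (SD, n = 4), a difference of -0.09 on the log2 scale, and the two-sided exact permutation test over all 35 splits gave p = 0.114, where the smallest possible p is 0.0286. As an example of the counting error, the 95% Wilson interval was 8.48% to 9.46% for VH81X-CBEscr/scr replicate 3.

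Counted among V joins other than VH81X, the stretch was lower in each VH81X-CBEscr/scr library than in each WT library. WT libraries held 10.47%, 11.58% and 10.43% and VH81X-CBEscr/scr libraries 9.566%, 9.021%, 8.967% and 9.316%. The means were 10.83% ± 0.653 (SD, n = 3) and 9.22% ± 0.279 (SD, n = 4), -0.23 on the log2 scale, with an exact permutation p of 0.0286, the smallest this design allows. VH81X itself had 1511, 1006 and 1508 lines in WT, against 46, 8, 14 and 26 in VH81X-CBEscr/scr, so leaving them out lowers the denominator almost only in WT. With distinct junctions and VH81X left out, the difference was -0.23 with an exact permutation p of 0.2. WT replicate 2 then stood at 15.05% and the other WT libraries at 11.42% and 11.54%, against 11.90%, 9.775%, 10.02% and 11.19% in VH81X-CBEscr/scr, so that the groups overlapped.

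**Figure D2:**
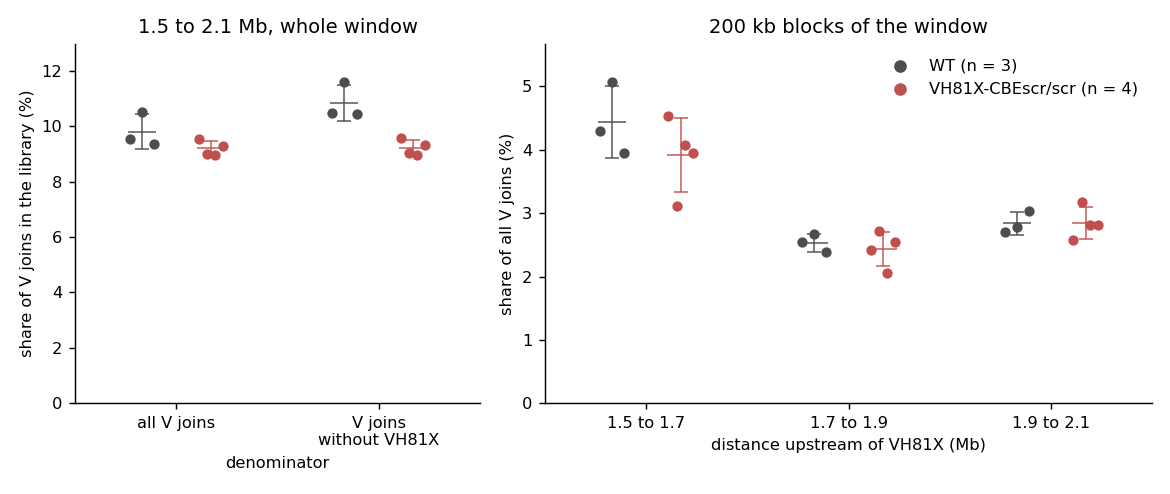
Left, share of the whole stretch among all V joins and among V joins without VH81X; right, share of each 200 kb block of the stretch among all V joins, by distance upstream of VH81X in Mb. Points are libraries and bars mean ± SD of WT (n = 3, grey) and VH81X-CBEscr/scr (n = 4, red); the groups separate only in the denominator without VH81X.

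Within the stretch, the 200 kb block nearest to VH81X held the most joins on average and in each library but VH81X-CBEscr/scr replicate 2, where it held 3.119% against 3.179% in the farthest block. That block also held more of the segments than either other block, and the share per segment was not compared between blocks. From 1.5 to 1.7 Mb the mean share was 4.44% ± 0.570 (SD) in WT, against 3.92% ± 0.590 (SD) in VH81X-CBEscr/scr. From 1.7 to 1.9 Mb it was 2.53% ± 0.145 and 2.43% ± 0.276, and from 1.9 to 2.1 Mb it was 2.84% ± 0.180 and 2.85% ± 0.250. None of these 3 differences was larger than the spread between libraries (exact permutation tests, Benjamini-Hochberg adjusted over the 3 blocks, adjusted p = 0.986, 0.986 and 1). With VH81X left out the differences were -0.32, -0.20 and -0.14 on the log2 scale from the nearest block to the farthest, each with an adjusted exact permutation p of 0.171, and whether the blocks differ from each other in this was not tested.

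At the near edge, both neighbours were Ighv1 positions. Ighv1-19 at 1501 kb was the first inside, and Ighv1-18 at 1475 kb the last before it, with 1.10% ± 0.177 (SD) in WT, against 0.794% ± 0.103 (SD) in VH81X-CBEscr/scr. At the far end Ighv8-8 at 2086 kb held 55 lines, and Ighv1-58 at 2104 kb, just outside, held 37. These 4 are given as a description of the bounds.

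Segment by segment, no difference between the genotypes passed the test. Of the 34 segments, 24 had at least 10 lines on average in either group and were tested by limma-voom over all 129 V segments that met this minimum. None of the 24 was called at an adjusted p of 0.05 with all V lines as the library size, where 6 of the 129, or 4.65%, were called. Without VH81X in the library size, again none of the 24 was called, against 3 of the 129, or 2.33%. At an unadjusted p under 0.05 the counts were 1 of 24 and 17 of 129 with VH81X kept, and 2 of 24 and 15 of 129 without it.

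The median log2 fold change (VH81X-CBEscr/scr minus WT) was -0.07 over the 24 and -0.04 over the 129, with 10 of the 24 positive and 14 negative. Leaving VH81X out shifted all values by a median of -0.14, to medians of -0.21 and -0.18, and 18 of the 24 were then negative. The median standard error of the 24 was 0.36 on the log2 scale.

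**Figure D3:**
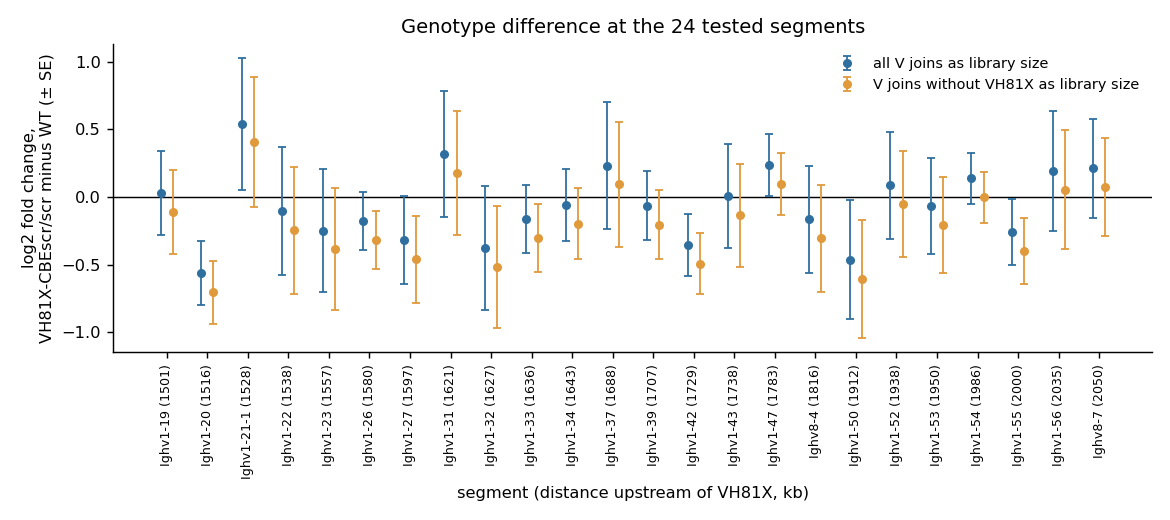
Log2 fold change (VH81X-CBEscr/scr minus WT) ± SE from limma-voom at the 24 tested segments, ordered by distance upstream of VH81X in kb, with all V joins (blue) or V joins without VH81X (orange) as library size. The lowest point is Ighv1-20 and the highest Ighv1-21-1, and none has an adjusted p below 0.05.

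Ighv1-20 had the lowest value, at -0.56 on the log2 scale (limma-voom, SE 0.235, adjusted p = 0.216), and -0.70 with VH81X left out (adjusted p = 0.0747). It was 1 of 2 tested segments, with Ighv1-42, at which every VH81X-CBEscr/scr library lay below every WT library once VH81X was left out, where this held for 6.98% of the 129. None lay above in that setting, where 3.1% of the 129 did. Without WT replicate 2 the Ighv1-20 value was -0.28 (limma-voom adjusted p = 0.909), and with distinct junctions it was -0.46 (adjusted p = 0.210). Ighv1-42 had -0.35 (adjusted p = 0.591), and -0.15 (adjusted p = 0.984) without WT replicate 2. The next lowest were Ighv1-50 at -0.46 and Ighv1-32 at -0.38, both with overlapping groups. Ighv1-50 ran from -0.95 without WT replicate 3 to -0.15 without WT replicate 2, and was -0.22 without VH81X-CBEscr/scr replicate 3. Ighv1-32 was -0.25 without WT replicate 2 and -0.06 without VH81X-CBEscr/scr replicate 4.

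The highest value was at Ighv1-21-1, a pseudogene of 95 lines, at 0.54 on the log2 scale (limma-voom, SE 0.486, adjusted p = 0.805), and 0.16 without WT replicate 2. It held 0.101%, 0.0365% and 0.101% in WT, against 0.108%, 0.129%, 0.107% and 0.108% in VH81X-CBEscr/scr. With VH81X kept it was the only tested segment of the stretch at which every VH81X-CBEscr/scr library lay above every WT library, where 6.2% of the 129 did, and none lay below, against 1.55% of the 129. The margin over WT replicates 1 and 3 was small, and WT replicate 2 held 4 lines there from 1 distinct junction. Ighv1-31 at 0.32 and Ighv1-47 at 0.24 followed, with overlapping groups. Their direction turned, to -0.15 and -0.03, when lines marked as duplicates were left out, but with distinct junctions both stayed positive, at 0.12 and 0.16. Ighv1-31 also ran from -0.08 without WT replicate 2 to 0.73 without VH81X-CBEscr/scr replicate 2, with 0.07 and 0.04 without replicates 1 and 4 of VH81X-CBEscr/scr. Ighv1-47 was 0.08 without VH81X-CBEscr/scr replicate 2.

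The share of joins that kept the reading frame varied widely between segments. The frame could be read for 90.9% of the lines in the stretch, at the 30 segments whose cysteine codon was found. Of these lines, 60.3% were in frame with JH4, and 12.2% of the in-frame lines had a stop codon between the cysteine and the tryptophan. Per library, 59.8%, 59.7% and 61.6% were in frame in WT, against 51.6%, 57.1%, 61.8% and 68.0% in VH81X-CBEscr/scr, a difference of means of -0.72 percentage points (exact permutation p = 0.857). The difference ran from -3.52 points without VH81X-CBEscr/scr replicate 4 to 1.96 points without its replicate 1, so its direction rests on single libraries. The VH81X-CBEscr/scr libraries spread around the narrow WT range on both sides.

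Among the 22 segments with at least 100 lines and a known frame, the in-frame share ran from 32.9% to 84.5% with a median of 61.2%, and 16 of them were above 50%. Highest were Ighv1-37 at 84.5% (95% Wilson interval 76.0% to 90.4%), Ighv1-52 at 71.5% and Ighv1-54 at 71.5% (68.8% to 74.0%). At Ighv1-52 only 1.19% of lines matched the consensus of that segment better than any other, so its value cannot be tied to that position. Lowest were Ighv1-32 at 32.9% (23.4% to 44.1%), Ighv1-27 at 39.8% (34.04% to 45.95%) and Ighv1-47 at 42.1% (38.3% to 46.0%). Per library Ighv1-54 ran from 65.2% to 80.4% and Ighv1-47 from 29.8% to 52.2%, so these 2 did not overlap in any library's value.

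Ighv1-27 and Ighv1-32 are the 2 segments whose V ends carry the stop codons shown in capitals above. Stop codons in the V bases were sought back from the cysteine codon over up to 60 codons. Here and below, only reads with at least 25 such codons were counted for this. A stop codon in the V bases was held by 94.5% of 200 reads at Ighv1-27 and 95.7% of 69 at Ighv1-32, against 1.99% at Ighv1-54. Their joins also held a stop codon after the cysteine in 35.3% and 36.0% of in-frame lines. This share was 6.69% at Ighv1-54 and 11.55% at the other members pooled. High values were not limited to the pair, with 36.7% at Ighv1-25, 25% at Ighv1-20 and 21.8% at Ighv1-47. At these, in order, 10%, 0.659% and 2.48% of reads held a stop codon in the V bases. Pooled, the pair was in frame in 38.3% of lines and the other members in 61.2%. Library by library the pair stood at 19.4%, 71.4% and 42.6% in WT, against 39.6%, 29.4%, 44.8% and 22.2% in VH81X-CBEscr/scr, below the other members in each library but WT replicate 2. The pair was singled out after these values were seen, so no test is given.

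Not every table pseudogene looked like this. Ighv1-33 is listed as a pseudogene, and 0.996% of its reads held a stop codon in the V bases and 67.6% (95% Wilson interval 63.4% to 71.6%) were in frame. An insertion or deletion against the files' reference was read in 31.1% of its lines, against 0.08% at Ighv1-54. Whether its V sequence is intact was not tested. Ighv8-7, also a table pseudogene, lay between, with a stop codon in the V bases of 28.4% of reads and 43.5% of lines in frame. At Ighv1-30, with 16 lines in all, 38.5% of reads held such a stop codon. The table describes the reference, and the reads come from 129SVE mice. In Ighv1-21-1, where TCT stands in place of the cysteine codon, no frame was assigned, nor in Ighv1-38, Ighv1-40 and the segment without a table gene.

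The 4 Ighv8 positions, Ighv8-4, Ighv8-5, Ighv8-7 and Ighv8-8, held 5.21% of the lines in the stretch. They were in frame in 44.3% of lines, against 61.2% at Ighv1 positions, and lay below the Ighv1 positions in each of the 7 libraries, with 36.9%, 50% and 47.8% in WT, against 35.6%, 45.7%, 36.8% and 54.9% in VH81X-CBEscr/scr. Ighv8-5 stood above the other 3, with 67.9% (95% Wilson interval 49.3% to 82.1%) of 28 lines in frame, but its interval overlapped each of theirs. Only 22.6% of its lines matched the consensus of that segment better than any other. This family difference was noticed in the data and is given with no test.

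**Figure D4:**
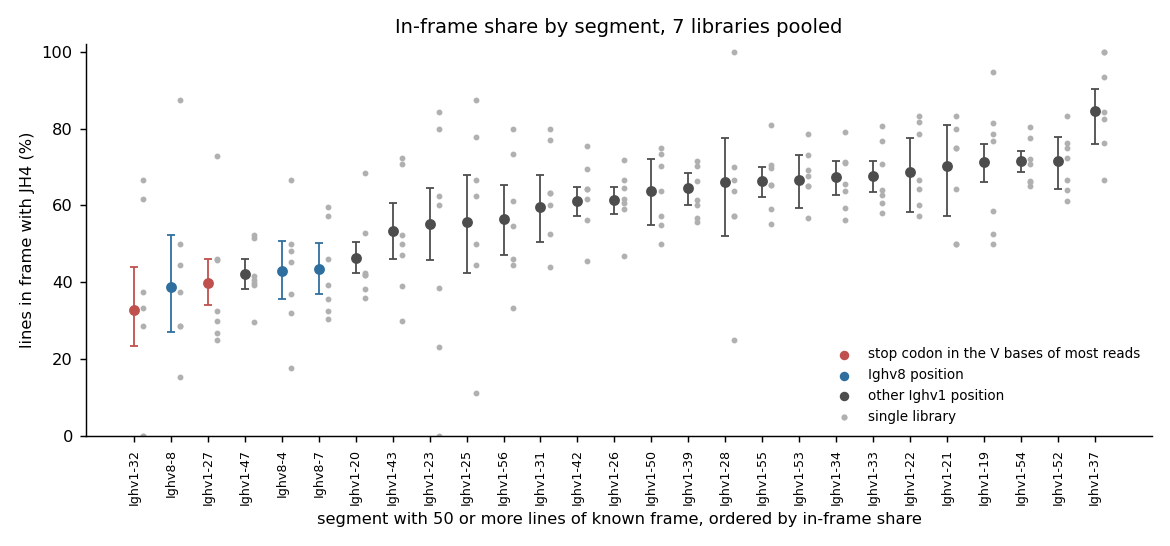
Percent of lines in frame with JH4 at the 27 segments with 50 or more lines of known frame, pooled over 7 libraries with 95% Wilson intervals (counting error only), and single libraries as small points. Ighv1-27 and Ighv1-32 (red) and Ighv8-4, Ighv8-7 and Ighv8-8 (blue) sit at the low end with Ighv1-47 and Ighv1-20, and Ighv1-37 at the high end.

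Set against V joins elsewhere other than VH81X in the same 7 libraries, joins in the stretch differed in 4 of 5 readouts. These are not 4 independent results, since lines not marked as duplicates and lines per distinct junction both measure repeated reads. Each was tested with a two-sided exact sign-flip permutation test over the 7 libraries, whose smallest possible p is 0.0156, with Benjamini-Hochberg adjustment over the 5. The in-frame share was 59.95% ± 4.99 (SD, n = 7) against 56.4% ± 3.22, higher in 6 of 7 libraries by a mean of 3.52 percentage points (exact permutation, adjusted p = 0.0391). With only lines that matched their own segment's consensus best, this was 3.05 points and no longer passed (exact permutation, adjusted p = 0.0586). High in-frame shares were not limited to the stretch. Just outside it, Ighv1-18 was in frame in 66.9% of lines and Ighv1-58 in 62.9%, pooled over libraries. Lines not marked as duplicates made up 46.9% ± 7.96 against 37.3% ± 6.91, higher in 7 of 7 libraries (exact permutation, adjusted p = 0.0260). The stretch held 1.64 ± 0.318 lines per distinct junction against 1.96 ± 0.532, lower in 7 of 7 libraries (exact permutation, adjusted p = 0.0260), which did not pass with own-consensus lines alone (a difference of -0.18, adjusted p = 0.0521).

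The prey bases differed from the files' reference at 2.16% ± 0.205 of aligned bases in the stretch and at 0.644% ± 0.0824 elsewhere, higher in 7 of 7 libraries (exact permutation, adjusted p = 0.0260). The number of bases between bait and prey had a median of 17 to 18 per library in the stretch and 17 elsewhere (exact permutation, adjusted p = 0.125). Lines in the stretch held at most 30 such bases, so longer stretches of D and added bases were not seen there. The largest number was 30 in each of the 7 libraries, and whether the deposited lists were cut at that length is not known. The largest number elsewhere was not checked. The segments of the stretch had lower shares than those elsewhere, and the part of this in the repeat readouts was not tested.

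Many positions in the stretch did not stand for a single V sequence. Among the 30 segments with 20 or more lines covering all 60 bases, the most frequent sequence held over 90% of lines at 6, and under 50% at 12. At Ighv1-26 the 3 printed sequences held 35.6%, 30.1% and 15.97% of 551 lines. The second differs from the first at 3 of 60 bases and the third at 2. All 3 were read in all 7 libraries, the first in 34.2%, 29.7% and 41.9% of lines in WT, against 22.1%, 39.6%, 43.1% and 42.6% in VH81X-CBEscr/scr. The second is also the most frequent sequence at Ighv1-43.

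At Ighv1-20 the printed sequence held 68.7% of 367 lines and a second one, different at 1 base, 28.3%. In WT replicate 2 the printed one held 96.7% of 92 lines, against 37.5% to 75% in the other libraries. Ighv1-47, Ighv1-42 and Ighv8-4 were nearly uniform, with 95.5%, 93.1% and 97.0% of lines in 1 sequence. Ighv1-54 held its printed sequence in 76.0% of 841 lines and a second in 13.0%.

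**Figure D5:**
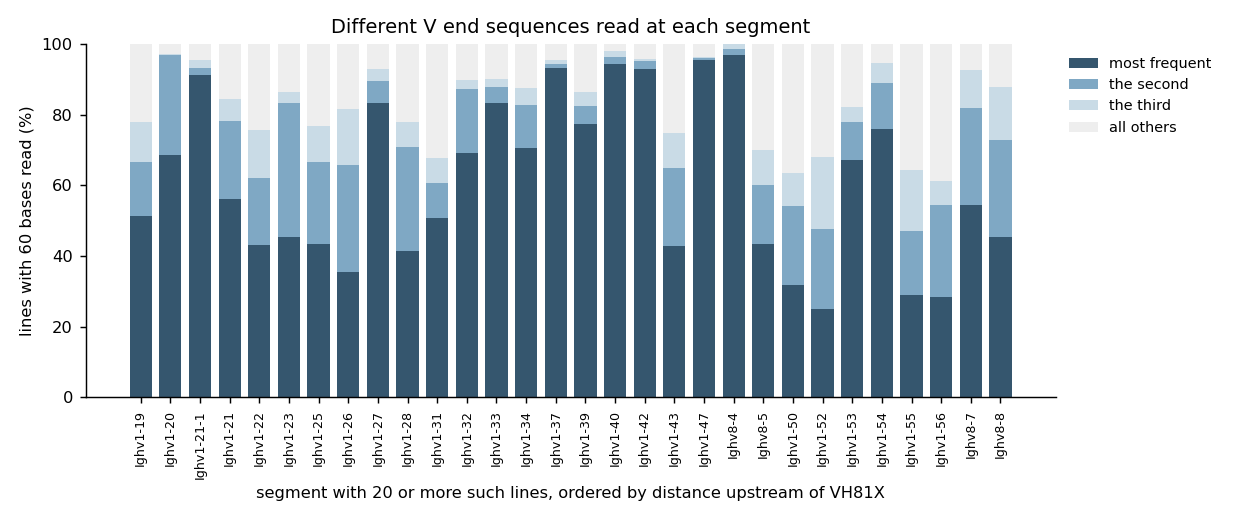
Percent of lines with all 60 V-end bases read that carried the 3 most frequent sequences or any other, at the 30 segments with 20 or more such lines, ordered by distance upstream of VH81X. Bars differ from nearly uniform (Ighv1-47, Ighv8-4) to split among several sequences (Ighv1-26, Ighv1-52, Ighv1-55).

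The same sequence also recurred at different positions. The sequence printed for Ighv1-34 was the most frequent one at Ighv1-22 and Ighv1-31 too, and that of Ighv1-55 at Ighv1-50. Over the last 100 bases of the read consensus, 19 of the 34 segments had another V segment within 2 differences, and 8 had an identical one. The nearest segment was of the same family for 32 of the 33 named segments, and for Ighv8-7 it was a segment without a gene name. Over up to 250 prey bases, 70.0% of lines in the stretch matched the consensus of their own segment better than any other, against 87.6% of V lines elsewhere. Counts at such positions may include joins of a near-identical copy.

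At 13 segments fewer than 50% of lines matched their own consensus best, and their shares are the least certain. These were Ighv1-21, Ighv1-23, Ighv1-25, Ighv1-30, Ighv1-31, Ighv1-36, Ighv1-43, Ighv8-5, Ighv1-50, Ighv1-52, Ighv1-53, Ighv1-55 and Ighv1-56. Among the 10 most used segments only Ighv1-55, at 38.3%, belongs to them, while Ighv1-20 stood at 96.7%, Ighv1-47 at 93.5% and Ighv1-54 at 88.5%. With lines that matched their own consensus alone, the stretch held 7.86% ± 0.747 (SD) of V joins in WT, against 7.52% ± 0.204 (SD) in VH81X-CBEscr/scr (exact permutation p = 0.514).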

How the data were processed

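Each deposited file lists junctions, 1 read per line, with position, strand, sequence and a duplicate mark. Per the submitters' processing notes, the authors aligned with Bowtie2 to mm9; versions and filters are not given in the sources used here. No deposited column holds counts, so lines were counted here, duplicates included, as percent of V lines per library. Segments were compared with limma-voom (limma 3.58.1, R 4.3.3), two-sided, at a Benjamini-Hochberg adjusted p of 0.05 over 129 segments. Single shares used exact permutation over 35 splits in Python 3.11.15 (SciPy 1.17.1, pandas 2.3.3). Prey bases were compared with segment consensuses by edlib 1.3.9.post1. The scripts were tested on simulated data. A distinct junction shares library, position, bait end and bases between. A line was in frame where the bases between the cysteine and tryptophan codons were a multiple of 3.

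Members and lists were chosen with earlier results of these data known. Named segments were the 10 most used, any past the threshold, the 3 highest and 3 lowest fold changes, those whose groups did not overlap, those at the edges, the 3 highest and 3 lowest in-frame shares, and those under 50% own-consensus match. Others were chosen after their values were seen. No genome or protein table of the build was used here. Alternatives left out VH81X, duplicates, each library or the low-count minimum, and changed scaling, test, segment size and gap, with a replicate block and with sequencing run as a random block.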

Additional observations from a re-analysis of the deposited data

Results flagged for a closer look

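In 23 sets of 4 VH81X-CBEscr/scr values, the highest or lowest library was checked for a gap from the others, and chance gives such a gap in about 1 in 20 sets. At Ighv1-21-1, VH81X-CBEscr/scr replicate 2 held 0.1285% of V joins, apart from 0.107% to 0.108% in the other 3 libraries. These shares stood for 13, 15, 14 and 17 lines in VH81X-CBEscr/scr replicates 1 to 4, so the gap rests on few lines. At Ighv1-55, VH81X-CBEscr/scr replicate 1 held 0.4316%, apart from 0.579% to 0.598% in the other 3.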

How the results depend on the processing

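The share of the stretch among V joins passed the threshold with VH81X left out (-0.23, exact permutation p = 0.0286). Over its 13 alternatives the log2 difference ran from -0.23 to -0.04, but leaving out a library or pairing by number cannot give a p under the threshold. No segment of the stretch was called in any of 19 alternatives, sequencing run as a random block among them, which was chosen after seeing the data, as were distinct junctions with VH81X left out. Replicate numbers did not pair the libraries (correlations of same-numbered deviations -0.242, 0.00109 and 0.106), and with a replicate block the share differed by -0.10 (exact sign-flip p = 0.25, the smallest that 3 pairs can give), with 0 segments called. With lines matching their own consensus only, the in-frame difference to other V joins was 3.05 points (adjusted p = 0.0586) and lines per distinct junction differed by -0.18 (adjusted p = 0.0521), by exact sign-flip permutation. Leaving out 1 library in turn gave in-frame differences of 2.50 to 4.28 points, differences in unmarked lines of 8.94 to 10.2 points, in lines per distinct junction of -0.36 to -0.25 and in mismatch of 1.47 to 1.55 points; 6 libraries cannot pass the adjusted threshold when the smallest p is shared by 3 readouts.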
